A study of Danio rerio with 57 samples.

Results

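Sorafenib at 2.4 µM was set directly against rotenone at 50 nM in zebrafish embryos at 48 hours post fertilization (hpf), without passing through the solvent control. The comparison was made on the libraries whose labels give an exposure start of 24 hpf, a sampling age of 48 hpf and one of these concentrations, and they were 6 of the 57 libraries of the series: 3 from sorafenib embryos (tubes T41, T43 and T45) and 3 from rotenone embryos (T61, T63 and T64). All 6 came from whole wild-type embryos of the OBI/WIK strain, exposed in the late scenario for 24 h, and each library was made from 1 pool of 20 embryos, so p-values measure the spread between pools. Every pool, the controls included, was kept in the carrier dimethyl sulfoxide (DMSO). The 2 DMSO libraries of the same start and age (T54 and T55) are given beside the values as a description and did not enter the contrast. The concentrations were not matched: the labels mark the sorafenib level as a lethal and the rotenone level as an effect concentration, and a difference between the groups is therefore one between these 2 exposures, in which substance and effect level cannot be told apart.

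Sorafenib is a tyrosine kinase inhibitor used against tumours. It blocks the receptors for vascular endothelial growth factor (VEGF), through which endothelial cells are told to divide, migrate and form vessels, and it also blocks other receptor kinases and the RAF kinases of the ERK pathway. Rotenone is a plant-derived insecticide that blocks complex I, the first enzyme of the mitochondrial respiratory chain. At the age studied, the zebrafish trunk vessels carry blood and new vessels are still sprouting. Cells make cholesterol from acetyl-CoA through the mevalonate pathway, and the SREBP transcription factors switch on its genes together with the LDL receptor when membrane sterol falls.

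The 6 libraries held between 35309867 and 50623892 counts, and between 65.7% and 80.5% of their reads had been counted to genes. Within the groups, the median absolute log2 difference of a gene between 2 libraries lay between 0.123 and 0.169 in sorafenib embryos and between 0.147 and 0.241 in rotenone embryos. The rotenone library farthest from its replicates was T64, at 0.213 from T61 and 0.241 from T63, while T61 and T63 were 0.147 apart. In the rotenone library T63, names of structural RNAs (ribosomal, signal recognition particle and spliceosomal RNAs) took 0.0964% of the counts and 65.8% of the reads were counted, while T61 and T64 had 0.0158% and 0.00429% of such names, and the sorafenib libraries between 0.00363% and 0.00459%. The cell type markers were compared as a check of the tissue: those found of neurons, skeletal muscle, heart, epidermis, red blood cells, myeloid cells, lens, hatching gland and pigment cells were detected and none was called, and only the endothelial markers kdrl, cdh5 and pecam1 were. The markers vmhc, mpx and hbbe1.1 were not matched, so heart rested on MYL7 alone and myeloid cells on LCP1 alone. The liver marker fabp10a lay between 0.237 and 0.863 CPM in the 6 libraries and was not called. A developmental score, the mean log2 level of the 200 genes that rose most minus that of the 200 that fell most between 36 and 96 hpf in DMSO embryos, averaged -3.91 ± 0.0622 in sorafenib embryos and -3.94 ± 0.142 in rotenone embryos (SD, n = 3 each), against -3.90 in DMSO embryos of this age, -5.82 at 36 hpf and 2.43 at 96 hpf.

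At 48 hpf, 260 genes were higher and 218 were lower in sorafenib embryos than in rotenone embryos. Genes of cholesterol synthesis, AP-1 and SOCS family regulators and feedback inhibitors of the ERK pathway were among the higher ones, and genes of endothelial cells, with the VEGF receptors kdrl, flt1 and FLT4, were among the lower ones. Levels are given as CPM, the count of a gene scaled to the effective size of its library. A differentially expressed gene (DEG) was one with a Benjamini-Hochberg adjusted p under 0.05 in edgeR's quasi-likelihood test, and 24246 genes were tested, so the DEGs were 1.97% of all genes, 1.07% higher and 0.899% lower. At an unadjusted p under 0.05 there were 2860 genes. The median log2 fold change of all genes was -0.0005. More than 1 log2 unit separated the groups in 80 of the higher and 126 of the lower DEGs. All 3 sorafenib libraries lay on one side of all 3 rotenone libraries in 255 of the 260 higher and 153 of the 218 lower DEGs, against 21.7% of all genes. The DEGs were called on these same libraries, so this share is a description and no separate support.

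**Figure D1:**
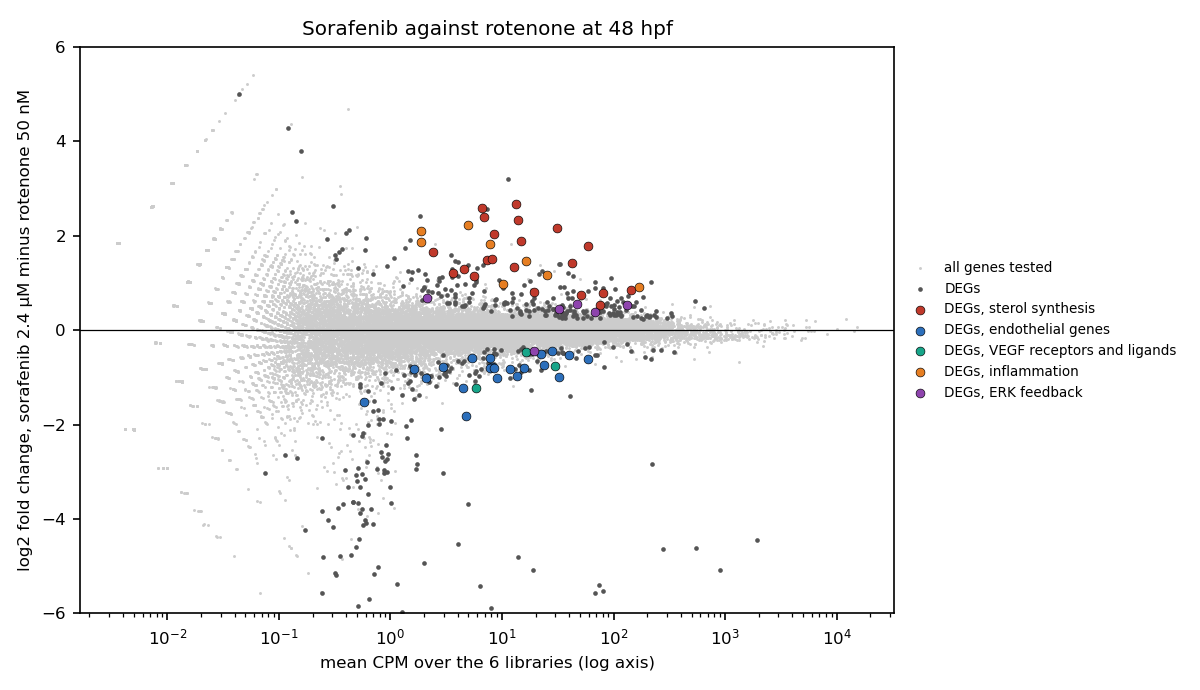
Each point is 1 gene, with its mean CPM (counts scaled by the effective library size) over the 6 libraries on a log axis and its log2 fold change, sorafenib minus rotenone at 48 hpf, on the other; grey points are all genes tested, dark points the DEGs and coloured points the DEGs of 5 gene lists. The called sterol synthesis genes lie above 0 and the called endothelial genes below 0, while 21 genes, 13 of them DEGs, lie outside the plotted range of 6 log2 units.

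The number of DEGs moved with single libraries. It was 165 without sorafenib T41, 175 without T43 and 290 without rotenone T63, and 102 when rotenone rested on T64 alone. It was 2230 (1585 higher, 645 lower), with all 478 among them, when the libraries T16, T37 and T49 were left out. These belong to other groups and stand apart from their replicates. They were left out of the whole fit, its filter and normalization included, and not of the estimate of the spread alone. The median log2 fold change of all genes was then 0.0306.

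The levels in the 2 DMSO libraries are given as a description. On the log2 scale the DMSO mean was nearer to rotenone in 131 of the 260 higher DEGs (50.4%) and 91 of the 218 lower DEGs (41.7%), against 44.1% of all genes. It lay between the means of sorafenib and rotenone in 233 of the higher and 157 of the lower DEGs, and in 38.5% of all genes. DEGs were chosen for a gap between these means, so their larger share follows in part from that choice. The DMSO mean was above both in 11 of the higher and 31 of the lower DEGs (32.3% of all genes) and below both in 16 and 30 (29.3% of all genes). Of the sterol and endothelial genes described next, 25 of 31 and 47 of 64 had a DMSO mean nearer to rotenone. In the inflammation and ERK feedback lists these were 11 of 21 and 13 of 28, beside 44.1% of all genes.

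The genes of cholesterol synthesis were higher in sorafenib embryos in each part of the pathway. Of 31 tested, 21 were higher and none was lower, with a median log2 fold change of 1.21 over all 31 beside a median near 0 and 1.07% higher calls over all genes. By step these were 7 of 9 genes of the mevalonate and squalene part, 10 of 13 of the sterol ring part and 4 of 9 of the SREBP and LDL receptor part. In the values that follow, libraries are in the order T41, T43 and T45 for sorafenib, T61, T63 and T64 for rotenone, and T54 and T55 for DMSO.

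In the mevalonate part, HMGCS1, which condenses acetyl-CoA units at the start of the pathway, had 68.8, 85.7 and 32.1 CPM in sorafenib embryos, against 23.1, 23.3 and 23.6 CPM in rotenone embryos and 21.5 and 27.5 CPM in DMSO embryos. All 3 sorafenib values lay above the others, T45 least so, and the log2 fold change was 1.41 ± 0.22 (SE, adjusted p = 6.08e-05). MVD, the mevalonate diphosphate decarboxylase, had 26.5, 31.9 and 11.5 CPM in sorafenib embryos, against 6.00, 6.93 and 5.98 CPM in rotenone embryos, a 3.70-fold difference (adjusted p = 9.11e-07). MVK, FDPS, FDFT1 and IDI1, further enzymes on the way to squalene, were 1.44-fold to 2.83-fold higher, with adjusted p from 0.000312 (MVK) to 0.0454 (IDI1).

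In the part that closes and trims the sterol rings, SQLE (ENSDARG00000079946), the squalene epoxidase, had 26.9, 32.8 and 8.97 CPM in sorafenib embryos, against 3.59, 4.27 and 2.86 CPM in rotenone embryos and 4.14 and 5.50 CPM in DMSO embryos. The groups did not overlap, and at 6.40-fold this was the largest difference of the called sterol synthesis genes (log2 2.68 ± 0.36, adjusted p = 5.55e-06). LSS, which closes the rings to lanosterol, had 13.9, 16.9 and 4.00 CPM in sorafenib embryos, against 2.13, 2.1 and 2.35 CPM in rotenone embryos, and was 5.28-fold higher (adjusted p = 5.55e-06). CYP51A1, the lanosterol demethylase, had 60.5, 68.3 and 23.1 CPM in sorafenib embryos, against 10.2, 13.5 and 9.91 CPM in rotenone embryos. It was 4.52-fold higher (adjusted p = 1.29e-05), and TM7SF2, a sterol reductase, was 4.13-fold higher (adjusted p = 4.81e-07). MSMO1, EBP, HSD17B7, NSDHL, DHCR7 and SC5D, later enzymes of the same chain, were also higher, from 1.75-fold (DHCR7) to 6.03-fold (MSMO1). The groups overlapped in SC5D, with 2.33 CPM in sorafenib T45 and 2.60 CPM in rotenone T61. Of the 21 called genes of the whole sterol list, 19 had groups that did not overlap. Of all 31 tested this held for 21, beside 21.7% of all genes.

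Among the regulators, insig1, which holds SREBP back in the endoplasmic reticulum and is itself an SREBP target, had the lowest p of all genes. It had 106, 115 and 55.9 CPM in sorafenib embryos, against 25.3, 31.8 and 23.4 CPM in rotenone embryos and 33.9 and 39.8 CPM in DMSO embryos. The groups were far apart, at 1.78 ± 0.18 on the log2 scale (adjusted p = 1.51e-08). The LDL receptor genes ldlra and ldlrb were 3.15-fold and 1.68-fold higher, and srebf2, which encodes the SREBP factor for sterol genes, was 1.81-fold higher (adjusted p = 0.000474, 0.00888 and 0.0107). SREBF1, SCAP, INSIG2 and STARD4 were not called.

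Library T45 stood below the mean of T41 and T43 in all 21 called sterol genes, at a median of 0.415 times that mean. In each of the 21 it lay between that mean and the rotenone mean. T45 also lay between these 2 means in 205 of the 260 higher and 140 of the 218 lower DEGs (78.8% and 64.2%). Over all genes this share was 36.6%. DEGs were chosen for a gap between the groups, which widens this interval, so these shares do not compare the position of T45. Without T45 the list again had 21 higher genes, with a median log2 fold change of 1.52, and it had 12 when rotenone rested on T64 alone. When only these 2 groups entered the fit it had 13.

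**Figure D2:**
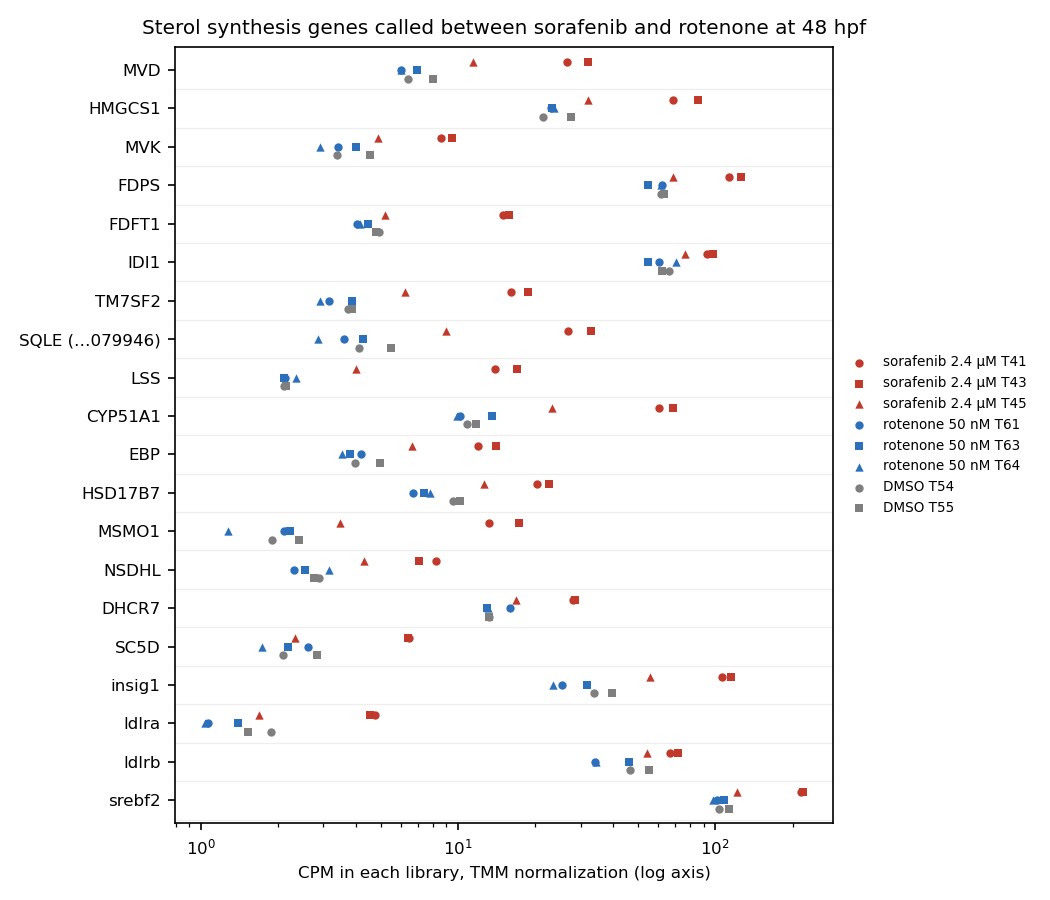
CPM of 20 of the called sterol synthesis genes in each library on a log axis, with sorafenib 2.4 µM in red, rotenone 50 nM in blue and DMSO in grey, one marker shape for each library. Sorafenib T45, the red triangle, lies below the mean of T41 and T43 in every row. Rotenone and DMSO values lie together in rows such as LSS and CYP51A1, while in insig1 and HSD17B7 the DMSO values lie between those of rotenone and sorafenib.

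Other lipid genes were higher as well. FADS3, the annotated name of a fatty acid desaturase family gene, had 25.8, 29.6 and 5.95 CPM in sorafenib embryos, against 2.30, 2.04 and 2.26 CPM in rotenone embryos and 3.29 and 3.40 CPM in DMSO embryos. No values overlapped, and at 9.27-fold (log2 3.21 ± 0.40, adjusted p = 1.40e-06) it was among the 3 largest increases of genes with at least 1 CPM. In the list of 21 lipid and LXR target genes, 3 were higher and 1 was lower, beside 1.07% and 0.899% over all genes. The median log2 fold change of the list was 0.10. SCD, which makes oleate, had 2.74, 3.40 and 0.899 CPM in sorafenib embryos, against 0.595, 0.741 and 0.536 CPM in rotenone embryos (adjusted p = 0.00634). FASN and ACACA, the enzymes that build fatty acids, were 1.60-fold and 1.52-fold higher (adjusted p = 0.00814 and 0.0107), and FASN values of T45 and T61 overlapped. PLTP, a lipid transfer protein of plasma, was 1.31-fold lower (adjusted p = 0.0279), and its DMSO values of 8.01 and 7.71 CPM were nearer to sorafenib. The calls of this list depended on single libraries: 1 was higher without T41 or without T64, and none was called without T43, with rotenone T64 alone or in a fit of these 2 groups. The lower call was also lost without T61.

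Endothelial genes were lower in sorafenib embryos than in rotenone embryos. Of 64 tested, 21 were lower and none was higher, beside 0.899% lower calls over all genes, and the median log2 fold change of the list was -0.45. The called genes were 9 of 18 for junctions and lumen, 3 of 6 around the Tie receptors, 3 of 12 transcription factors, 2 of 3 aquaporins, 2 of 17 of arteries and tip cells and 2 of 8 of veins, lymphatics and scavenging. All 21 had sorafenib and rotenone values that did not overlap. Of all 64 tested this held for 36, beside 21.7% of all genes. In whole embryos, fewer endothelial cells and less RNA per endothelial cell cannot be told apart.

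The receptors were led by kdrl, a zebrafish VEGF receptor and the usual marker of endothelium, which had 18.4, 20.7 and 27.5 CPM in sorafenib embryos, against 36.9, 39.2 and 37.4 CPM in rotenone embryos and 39.4 and 38.2 CPM in DMSO embryos. Every sorafenib value was below every other, and kdrl was 1.70-fold lower (log2 -0.77 ± 0.12, adjusted p = 0.000113). For flt1, a VEGF receptor that acts mostly as a decoy, the values were 2.27, 3.72 and 4.49 CPM in sorafenib embryos, against 7.86, 8.44 and 8.09 CPM in rotenone embryos (log2 -1.22 ± 0.20, adjusted p = 0.000227). FLT4, the receptor for VEGFC in veins and lymphatics, was 1.38-fold lower (adjusted p = 0.0121), a call lost when T41, T43 or T61 was left out. The remaining receptor kdr had 2.72, 3.03 and 3.45 CPM in sorafenib embryos, against 7.06, 6.93 and 5.27 CPM in rotenone embryos. These did not overlap, but the log2 fold change of -1.07 ± 0.32 did not pass the test (adjusted p = 0.0680). None of the 7 VEGF ligand genes and none of the 4 neuropilin genes was called, beside 1.97% of all genes. The log2 fold changes of the ligands ranged from -0.42 to 0.32.

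At the junctions, cdh5, the cadherin that joins endothelial cells, had 17.6, 20.7 and 26.6 CPM in sorafenib embryos, against 44.6, 43.0 and 41.2 CPM in rotenone embryos and 43.8 and 39.2 CPM in DMSO embryos. It was 1.98-fold lower, with sorafenib apart from the rest (adjusted p = 0.000227). The adhesion molecule pecam1 had 7.22, 7.82 and 12.5 CPM in sorafenib embryos, against 18.1, 16.6 and 19.3 CPM in rotenone embryos (log2 -0.97 ± 0.14, adjusted p = 1.54e-05). For plvapb, which forms the diaphragms of vessel pores, these were 14.5, 16.2 and 22.8 CPM in sorafenib embryos, against 29.5, 31.0 and 29.0 CPM in rotenone embryos (adjusted p = 7.76e-05). In both genes T45 was the sorafenib library nearest to rotenone, as it was in cdh5. The junction and lumen genes clec14a, ccm2l, CLDN5 (ENSDARG00000014059), heg1, ESAM and ecscr were between 1.43-fold and 2.03-fold lower, with adjusted p between 0.00108 and 0.0437.

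Of the Tie group, the orphan receptor TIE1 had 10.5, 9.58 and 14.1 CPM in sorafenib embryos, against 20.3, 20.2 and 19.3 CPM in rotenone embryos and 20.2 and 20.1 CPM in DMSO embryos. It was 1.75-fold lower and had the lowest p of the list (adjusted p = 1.25e-05). The phosphatase ptprb, which restrains Tie and VEGF receptor signalling, was 1.78-fold lower (adjusted p = 0.000314), and the angiopoietin receptor tek 1.51-fold lower (adjusted p = 0.0362). Among transcription factors, etsrp, which starts the endothelial programme in zebrafish, was 1.75-fold lower, fli1rs 1.72-fold lower and ERG 1.72-fold lower (adjusted p = 0.00803, 0.000978 and 0.0111). The water channel aqp8a.1 had 1.36, 0.893 and 4.07 CPM in sorafenib embryos, against 6.86, 8.29 and 7.20 CPM in rotenone embryos, and at 3.52-fold lower it had the largest fold of the called endothelial genes. Of the tip cell and arterial genes, ESM1 was 2.35-fold lower (adjusted p = 0.00463) and the connexin GJA5 (ENSDARG00000040065), at 0.174 to 0.364 CPM in sorafenib embryos and 0.684 to 1.04 CPM in rotenone embryos, 2.89-fold lower (adjusted p = 0.0141). The scavenger genes stab2 and dab2 were 1.44-fold and 1.37-fold lower. The 15 lower DEGs with the lowest p also held scarf1, a scavenger receptor (2.21-fold lower), BCL6B, a transcriptional repressor (2.01-fold), and the receptor GPR182 (1.87-fold), which were not in the list.

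The sorafenib library T45 lay above T41 and T43 on average in 20 of the 21 called endothelial genes, at a median of 1.37 times their mean, and thus nearer to rotenone. The number of lower endothelial genes was 20 without T45, 10 without T41, 11 without T43, 12 without rotenone T63 and 8 with rotenone T64 alone. No setting gave a higher endothelial gene except the one without T16, T37 and T49, with 2 higher and 28 lower. That setting called 1585 higher and 645 lower over all genes. The summed level of all 64 genes lay between 1760 and 1779 CPM in sorafenib embryos and between 1721 and 1929 CPM in rotenone embryos, so the sums overlapped. Genes of mural cells, which wrap vessels, were not called (0 of 12), and neither were genes of red blood cells (0 of 23), beside 1.97% of all genes called.

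**Figure D3:**
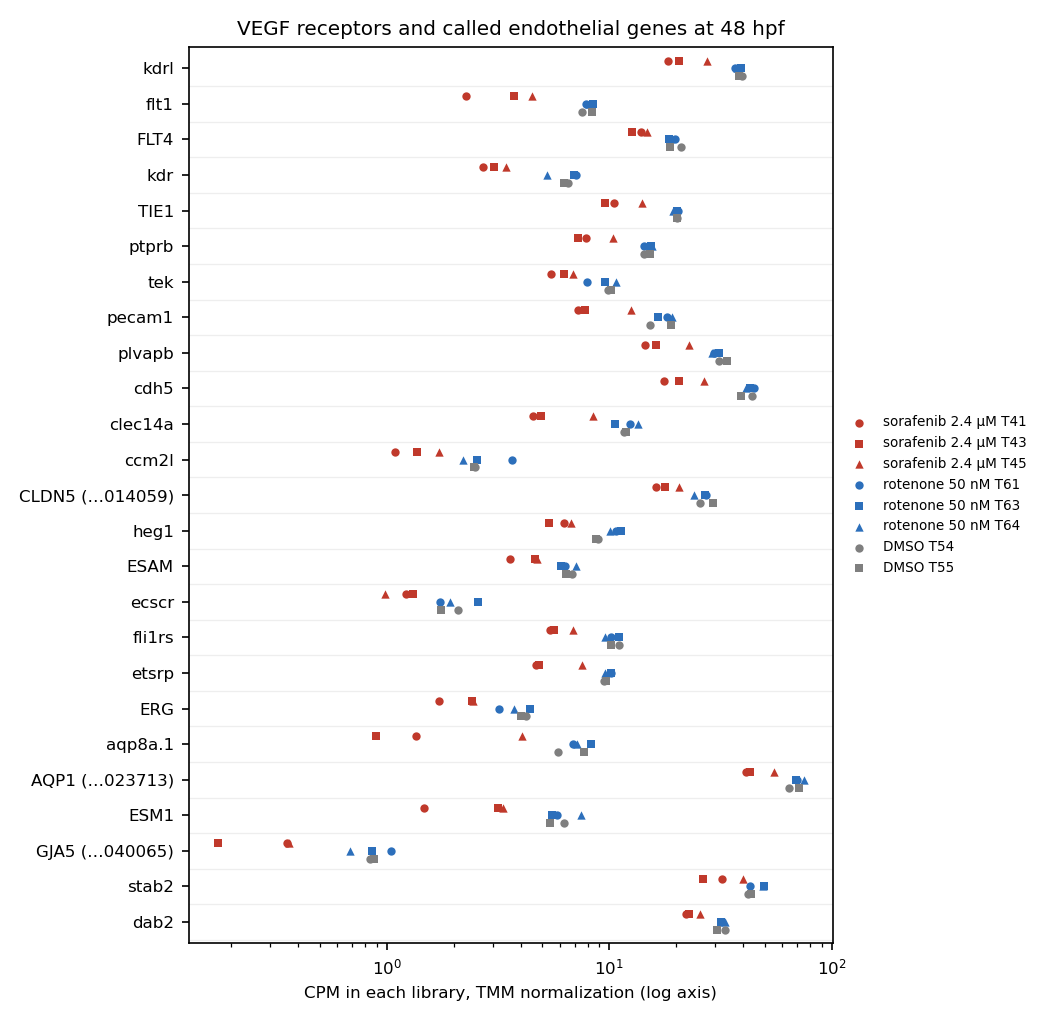
CPM of 4 VEGF receptor genes and the 21 called endothelial genes in each library on a log axis, with sorafenib 2.4 µM in red, rotenone 50 nM in blue and DMSO in grey, one marker shape for each library. In each row the red points lie left of the blue ones without overlap, also for kdr, which was not called.

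Inflammation and AP-1 genes were higher in sorafenib embryos. Of 21 tested, 8 were higher and none was lower, beside 1.07% higher calls over all genes. The median log2 fold change was 0.94. SOCS3 (ENSDARG00000026611), a feedback inhibitor of cytokine signalling, had 27.8, 24.5 and 19.4 CPM in sorafenib embryos, against 8.70, 8.53 and 8.66 CPM in rotenone embryos and 10.8 and 11.5 CPM in DMSO embryos. It was 2.77-fold higher (log2 1.47 ± 0.17, adjusted p = 4.11e-07), and the other SOCS3 gene (ENSDARG00000025428), at 9.36, 9.23 and 5.74 CPM in sorafenib embryos, against 1.24, 1.84 and 2.11 CPM in rotenone embryos, was 4.71-fold higher (adjusted p = 4.28e-05). Neither overlapped. irf1b, an interferon regulatory factor, was 4.31-fold higher at a low level of 3.97, 2.72 and 2.46 CPM in sorafenib embryos, against 0.743, 0.859 and 0.506 CPM in rotenone embryos (adjusted p = 4.11e-07). The chemokine gene cxcl18b was 3.65-fold higher (adjusted p = 7.76e-05).

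Of the AP-1 genes of the list, the called ones were JUN, FOSL2 and both JUNB genes. JUN had 220, 233 and 218 CPM in sorafenib embryos, against 113, 124 and 117 CPM in rotenone embryos and 183 and 199 CPM in DMSO embryos. Its DMSO values were nearer to sorafenib, and the difference was 1.90-fold (log2 0.92 ± 0.14, adjusted p = 5.78e-05). JUND, outside the list, had the same order, with 22.8, 24.0 and 24.6 CPM in sorafenib embryos, against 11.7, 12.1 and 10.7 CPM in rotenone embryos and 18.1 and 19.5 CPM in DMSO embryos (adjusted p = 1.60e-05). FOSL2 was 1.98-fold higher, and the JUNB genes were 3.54-fold (ENSDARG00000074378) and 2.24-fold higher (ENSDARG00000104773), with DMSO nearer to rotenone. The call of ENSDARG00000104773 was kept in 8 other settings of the fit and lost in 8. With any 1 of the 6 libraries left out, 7 genes of the list were higher. The cytokine genes il1b, tnfb and cxcl8a had log2 fold changes between 0.94 and 1.74 that were not called (adjusted p = 0.112, 0.212 and 0.564). None of the 18 myeloid marker genes was called, beside 1.97% of all genes.

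ERK pathway feedback genes were higher in 5 cases of 28 and lower in 1, beside 1.07% and 0.899% over all genes. Their median log2 fold change was 0.26. All 5 encode phosphatases or inhibitors that damp ERK or receptor tyrosine kinase signalling. DUSP6 had 162, 154 and 149 CPM in sorafenib embryos, against 109, 111 and 102 CPM in rotenone embryos and 125 and 131 CPM in DMSO embryos, and was 1.45-fold higher without overlap (log2 0.53 ± 0.09, adjusted p = 0.000506). SPRY4 had 55.6, 57.0 and 54.4 CPM in sorafenib embryos, against 38.7, 38.3 and 37.1 CPM in rotenone embryos (1.46-fold, adjusted p = 0.00151). IL17RD, SPRY2 and DUSP2 were 1.30-fold to 1.61-fold higher (adjusted p = 0.00666, 0.0164 and 0.0228). Of these DUSP2 was below 3 CPM. mych, a zebrafish myc gene, was 1.35-fold lower, with 16.2 and 16.8 CPM in DMSO embryos, close to the 15.6 to 16.8 CPM of sorafenib embryos (adjusted p = 0.00666). The number of higher ERK feedback genes depended on single libraries, being 3 without T41, T43, T45 or T64, 2 with rotenone T64 alone, 8 in a fit of these 2 groups and 11 without T16, T37 and T49, and mych was not called without T43 or T61. Of the kinase genes that sorafenib targets, 0 of 16 were called, beside 1.97% of all genes.

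In some stress and immediate-early genes rotenone was lower than both sorafenib and DMSO. ppp1r15a, which restores translation by helping to dephosphorylate eIF2α, had 125, 129 and 134 CPM in sorafenib embryos, against 56.4, 64.9 and 58.5 CPM in rotenone embryos and 105 and 104 CPM in DMSO embryos. Rotenone was the low group, at a log2 fold change of 1.11 ± 0.21 (adjusted p = 0.00126). BHLHE40, a transcriptional repressor of the clock, was 1.47-fold higher in sorafenib embryos (adjusted p = 0.00276), with 154 and 149 CPM in DMSO embryos beside 103 to 119 CPM in rotenone embryos. ccn1l1, a matricellular gene, had 4.90, 5.83 and 7.08 CPM in sorafenib embryos, against 2.18, 2.19 and 2.17 CPM in rotenone embryos and 3.53 and 4.57 CPM in DMSO embryos (adjusted p = 1.45e-05). Its DMSO values lay between those of the other groups.

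The mitochondrial chaperones HSPA9 and HSPD1 went the other way, being the 2 lower DEGs of 11 mitochondrial stress genes. Over all genes, 0.899% were lower. HSPA9 had 222, 227 and 230 CPM in sorafenib embryos, against 331, 246 and 333 CPM in rotenone embryos and 241 and 235 CPM in DMSO embryos (log2 -0.43 ± 0.09, adjusted p = 0.00264). Its high values were in T61 and T64, while T63 was near DMSO, and the same was seen in HSPD1 (178, 192 and 208 CPM in sorafenib embryos, against 269, 208 and 299 CPM in rotenone embryos, adjusted p = 0.0392). ASNS, the asparagine synthetase, had 37.2, 39.5 and 34.6 CPM in sorafenib embryos, against 66.6, 45.1 and 55.7 CPM in rotenone embryos and 31.2 and 28.0 CPM in DMSO embryos (adjusted p = 0.0364). ASNS and the amino acid transporter chain slc3a2a (1.28-fold lower, adjusted p = 0.0272) were the 2 lower DEGs of 31 ATF4 target genes, ppp1r15a the 1 higher. No lower gene remained among the ATF4 targets when any 1 of T41, T43, T45, T61 or T64 was left out, and of the mitochondrial stress genes 1 was lower without T41, T43, T61 or T64 and none in a fit of these 2 groups. T63 was the lowest rotenone library in 20 of these 31 genes and 8 of the 11 mitochondrial stress genes. The part of its structural RNA content in this was not tested.

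The target of rotenone itself gave no DEG. None of the 45 complex I genes was called, with log2 fold changes from -1.19 to 0.17 and a median of -0.20. The 38 nuclear subunit genes were all negative, from -0.41 to -0.03, and of the 7 mitochondrial ones 4 were positive and 3 negative. Negative values were also seen in 77 of 81 ribosomal protein genes, so the sign alone was not particular to complex I. The libraries differed, however. The ribosomal protein genes summed to 79152, 81327 and 84202 CPM in sorafenib embryos, against 83899, 78019 and 105045 CPM in rotenone embryos, with T64 apart. For complex I these sums were 6523, 6697 and 7111 CPM, against 7017, 7034 and 7256 CPM. The outermost complex I gene was MT-ND6, a subunit encoded on the mitochondrial strand opposite to most others. It had 8.58, 6.38 and 8.15 CPM in sorafenib embryos, against 18.6, 14.1 and 20.0 CPM in rotenone embryos. These did not overlap, but the test was not passed (adjusted p = 0.0502). Likewise 0 of 46 genes of complexes II to V, 0 of 59 of glycolysis and hypoxia and 0 of 24 NRF2 and glutathione genes were called. Over all genes 1.97% were called, so the absence of calls in lists of this size, complex I included, is near that share.

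In the heart list 2 of 20 genes were higher, beside 1.07% of all genes. These were the natriuretic peptide genes that hearts switch on under load. nppb had 16.7, 12.7 and 8.24 CPM in sorafenib embryos, against 1.98, 1.57 and 2.83 CPM in rotenone embryos and 1.84 and 1.53 CPM in DMSO embryos, a 5.90-fold difference (log2 2.56 ± 0.53, adjusted p = 0.00391). nppa had 60.0, 45.5 and 34.3 CPM in sorafenib embryos, against 17.5, 15.5 and 19.9 CPM in rotenone embryos (2.64-fold, adjusted p = 0.0445). T45 was again the lowest sorafenib library in both, and 1 of the list was called without T41, T43, T61, T63 or T64 and none with rotenone T64 alone. The contractile heart marker MYL7 was not called, at 33.2, 32.6 and 29.4 CPM in sorafenib embryos, against 27.7, 25.6 and 26.6 CPM in rotenone embryos (adjusted p = 0.565). Of 33 skeletal muscle genes, TNNI2 (ENSDARG00000029995), a fast troponin, was the 1 DEG, 2.22-fold higher (adjusted p = 0.000645).

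Among the other genes with the lowest p, FKBP5, a co-chaperone of steroid receptors that glucocorticoids induce, led the lower DEGs. It had 17.6, 19.2 and 30.3 CPM in sorafenib embryos, against 71.6, 55.8 and 49.7 CPM in rotenone embryos and 45.9 and 64.8 CPM in DMSO embryos, and was 2.64-fold lower with no overlap (log2 -1.40 ± 0.18, adjusted p = 3.96e-06). acte1 was 2.40-fold lower and ncam3 3.76-fold lower, both with DMSO near rotenone (adjusted p = 8.33e-05 and 0.000709). MYL2 (ENSDARG00000104722) was 3.67-fold lower, at 0.261 to 0.449 CPM in sorafenib embryos and 0.942 to 1.64 CPM in rotenone embryos. The complement gene c3a.3 was 2.39-fold higher, with 34.5, 34.6 and 27.6 CPM in sorafenib embryos, against 11.5, 15.0 and 14.0 CPM in rotenone embryos (adjusted p = 2.56e-05), and si:ch211-195b15.8 2.32-fold higher. The p53 target genes bbc3 (1.97-fold) and SESN1 (1.47-fold) were the only DEGs of 44 cell cycle genes, beside 1.97% of all genes called. The drug metabolism genes cyp1a (1.65-fold lower, adjusted p = 0.00271) and ABCB4 (2.59-fold lower, adjusted p = 0.0382) were the only DEGs of 17. The call of ABCB4 was kept in 8 other settings of the fit and lost in 8. SOX2 was 1.22-fold higher, the 1 DEG of 23 neuronal genes (adjusted p = 0.0306), a call lost when any 1 of T43, T45, T61, T63 or T64 was left out.

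Of the 71 genes named by the rule given below, 1 was listed at 0 counts in all 3 rotenone libraries. Other genes were not searched for this. si:ch73-226l13.2 had 6.62, 8.10 and 2.91 CPM in sorafenib embryos and 5.53 and 9.90 CPM in DMSO embryos, and its level in sorafenib embryos was at least 210-fold higher than the floor of 3 counts over the rotenone group (adjusted p = 0.00580). It was also at 0 in 1 library of other groups each, rotenone 25 nM at 48 hpf (T49) and sorafenib 2.4 µM at 96 hpf (T66). At the other end, 5_8S_rRNA (ENSDARG00000081218) had 3.79, 2.00 and 2.67 CPM in sorafenib embryos, against 40.5, 355 and 6.63 CPM in rotenone embryos, and it rested on T63 and T61.

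Of the 218 lower DEGs, 23 carried structural RNA names, and all 23 were highest in T63. Another 26 had no name, 24 of them highest in T63. Of the remaining 169, T63 was highest in 80. The 25 replication histone genes, with a median of -1.65 and 3 lower DEGs, followed the same library: without T63 their median was -0.33 and none was called. With other single libraries left out, 1 (T41 or T43) to 10 (T64) were lower. No structural RNA name was among the higher DEGs.

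**Figure D4:**
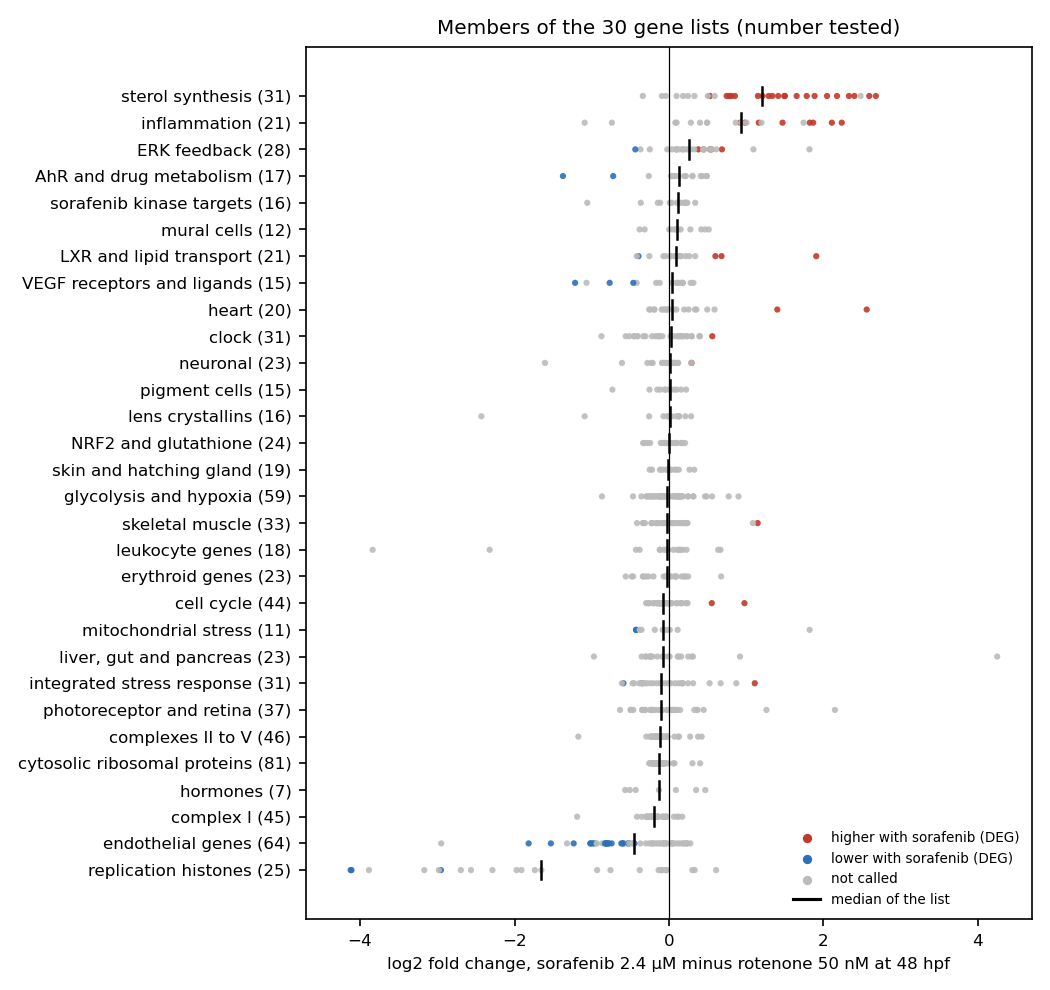
Log2 fold change, sorafenib 2.4 µM minus rotenone 50 nM at 48 hpf, of each tested member of the 30 gene lists, 1 row per list with the number tested, sorted by the median (black tick); red points are higher and blue points lower DEGs, and grey points were not called. Sterol synthesis has the highest median, 1.21, and replication histones the lowest, -1.65.

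The remaining lists had no DEG in this contrast: ribosomal proteins (0 of 81), photoreceptor and retina genes (0 of 37), pigment cells (0 of 15), epidermis and hatching gland (0 of 19), liver, gut and pancreas (0 of 23), lens crystallins (0 of 16) and pituitary hormones (0 of 7). Over all genes 1.97% were called.

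The same question was asked at the lower concentrations and at the other ages, on other libraries. These libraries had entered the same fit as the contrast at 48 hpf and shared its estimate of the spread, so the comparisons were not independent. At the lower concentrations the labels mark sorafenib as an effect and rotenone as a lethal concentration, the reverse of the main contrast. Sorafenib at 1.3 µM against rotenone at 25 nM at 48 hpf gave 62 higher (0.256%) and 107 lower DEGs (0.441%), together 0.697% of all genes. At 36 hpf, 2.4 µM against 50 nM gave 1011 higher (4.17%) and 1306 lower (5.39%), together 9.56%. At 96 hpf it gave 1804 higher (7.44%) and 2862 lower (11.8%), together 19.2%. The counts at 36 hpf depended on T37, without which there were 302 DEGs, and those at 96 hpf were 2664 without T70 and 2914 without T69. The 1.3 µM comparison depended on single libraries as well, with 30 DEGs without T60, 65 without T49 and 81 without T59.

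In the fit of all groups, the 2 leading groups had calls in the same direction in each of these comparisons. In a fit of only the groups compared, 0 genes were called at 36 hpf. Over all genes, 0.256% were higher at the lower concentrations, 4.17% at 36 hpf and 7.44% at 96 hpf. Sterol synthesis genes were higher in 9 of 31 at the lower concentrations, in 11 at 36 hpf (1 lower) and in 18 at 96 hpf (1 lower). Without T16, T37 and T49 these were 5 at the lower concentrations, 3 at 36 hpf and 24 at 96 hpf (1 lower). Over the 24225 genes tested, that setting called 74 higher and 170 lower at the lower concentrations and 222 and 304 at 36 hpf. At 96 hpf it called 4325 higher and 3702 lower. SQLE had 7.82, 7.44 and 10.6 CPM in sorafenib embryos at 36 hpf (T16, T18 and T20), against 3.77, 4.36 and 4.74 CPM in rotenone embryos (T37, T38 and T40). At 96 hpf the values of SQLE were 16.8, 24.8 and 31.5 CPM in sorafenib embryos (T66, T69 and T70), against 6.81, 6.43 and 9.12 CPM in rotenone embryos (T87, T88 and T89). It passed the test at 96 hpf (adjusted p = 0.00016) and not at 36 hpf (adjusted p = 0.057).

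Endothelial genes were lower in 16 of 64 at the lower concentrations, in 18 at 36 hpf (1 higher) and in 19 at 96 hpf (2 higher). Lower calls over all genes were 0.441%, 5.39% and 11.8%. Without T16, T37 and T49, 20, 16 and 21 endothelial genes were lower and 8 were higher at 96 hpf. Over the 24225 genes tested, that setting called 4325 higher and 3702 lower at 96 hpf. At 36 hpf, kdrl had 15.3, 25.2 and 21.8 CPM in sorafenib embryos, against 24.9, 32.0 and 32.8 CPM in rotenone embryos, so that T18 overlapped T37 (log2 -0.53, adjusted p = 0.0065). At 96 hpf it had 25.2, 22.8 and 25.7 CPM in sorafenib embryos, against 38.3, 36.7 and 37.8 CPM in rotenone embryos (log2 -0.61, adjusted p = 0.00024). At 1.3 µM it had 25.4, 23.9 and 19.6 CPM, against 37.7, 28.8 and 38.7 CPM at 25 nM of rotenone (log2 -0.61, adjusted p = 0.0056). The sorafenib values of kdrl thus lay below all rotenone values at 96 hpf and at 1.3 µM. In the fit of all groups, kdrl, flt1 and FLT4 were called lower in all 4 comparisons. Fits of only the groups compared called 0 genes at 36 hpf, and 8 higher and 0 lower at 1.3 µM. All lower endothelial and VEGF receptor calls of these 2 comparisons were thus lost there. plvapb was lower at 48 hpf at both concentrations and higher at 36 hpf (log2 0.41, adjusted p = 0.022), a call that was lost without T16, T37 and T49 (log2 0.20, adjusted p = 0.384).

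The inflammation and ERK feedback genes differed in which comparisons held calls. Over all genes, 7.44% were higher and 11.8% lower at 96 hpf, and 4.17% and 5.39% at 36 hpf. At 1.3 µM these shares were 0.256% and 0.441%. Inflammation genes were higher in 17 of 21 at 96 hpf, but none was at 36 hpf or at 1.3 µM, where 1 was lower. SOCS3 (ENSDARG00000026611) had 8.22, 8.47 and 7.65 CPM in sorafenib embryos at 36 hpf, against 10.8, 7.99 and 7.83 CPM in rotenone embryos. At 96 hpf its values were 45.6, 88.4 and 97.9 CPM in sorafenib embryos, against 18.7, 20.8 and 19.5 CPM in rotenone embryos, so the groups overlapped at 36 hpf and were far apart at 96 hpf. ERK feedback genes were higher in 14 of 28 at 96 hpf (3 lower), in none at 36 hpf (6 lower) and in none at 1.3 µM (1 lower). Without T16, T37 and T49, 18 were higher at 96 hpf (3 lower), 1 was lower at 36 hpf and 2 were lower at 1.3 µM. Over the 24225 genes tested, that setting called 4325 higher and 3702 lower at 96 hpf. It called 304 lower at 36 hpf and 170 lower at 1.3 µM. Photoreceptor genes, none of them called at 48 hpf, were lower in 34 of 37 at 96 hpf, beside 11.8% of all genes.

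Some DEGs of 48 hpf were called the other way at the lower concentrations, where the labelled effect levels of the substances are reversed. There were 10 of these among 478, all higher at 2.4 µM against 50 nM and lower at 1.3 µM against 25 nM, and 63 with the same call. Without T16, T37 and T49 these were 15 and 65. Over all genes, 0.697% were called at the lower concentrations, and 244 of 24225 without these libraries. BHLHE40 had 133, 128 and 122 CPM at 1.3 µM of sorafenib, against 179, 183 and 173 CPM at 25 nM of rotenone, while at the higher concentrations it had 168, 155 and 169 CPM in sorafenib embryos, against 113, 119 and 103 CPM in rotenone embryos. The rotenone values of BHLHE40 thus lay above DMSO at 25 nM and below it at 50 nM. The other genes, named after their values were seen, were CCN1, ctgfa, KLF11, both ARRDC3 genes, ZNF395, tent5ba, FAM13A and si:ch73-335l21.4. Against 36 hpf, 97 DEGs had the same and 8 the opposite call, or 45 and 2 without T16, T37 and T49. Against 96 hpf, 175 had the same and 17 the opposite call, or 217 and 27 without these libraries. Over all genes, 9.56% were called at 36 hpf and 19.2% at 96 hpf. Without these libraries, 526 and 8027 of 24225 genes were called.

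**Figure D5:**
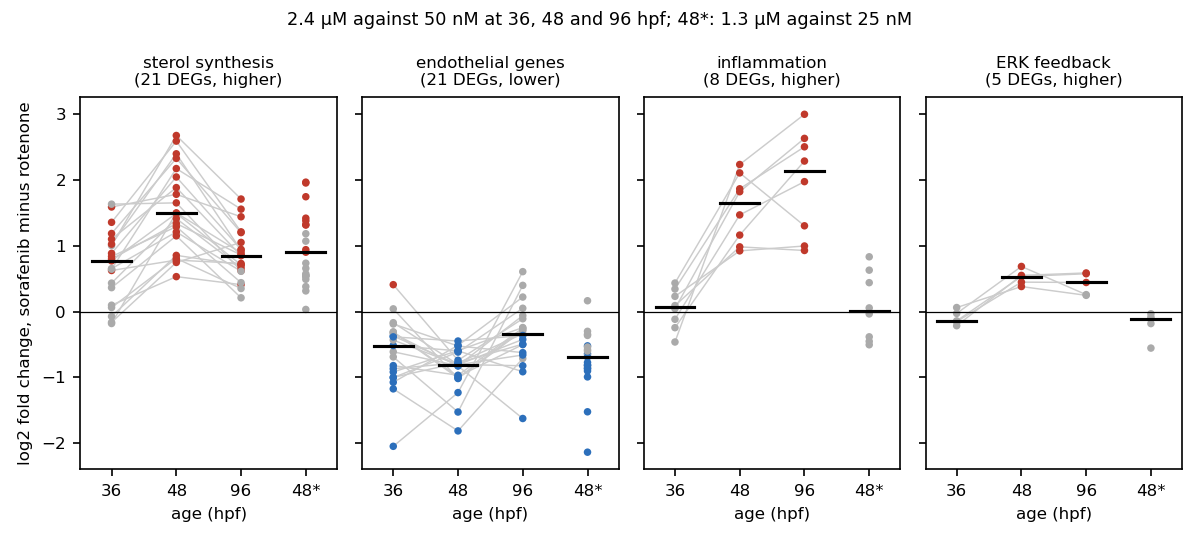
Log2 fold change, sorafenib minus rotenone, of the genes called at 48 hpf in 4 lists: 2.4 µM against 50 nM at 36, 48 and 96 hpf, joined by lines, and 1.3 µM against 25 nM at 48 hpf (48*). Red points are higher, blue points lower DEGs of that comparison, grey points were not called and black bars are medians; at 36 hpf and at 1.3 µM, sterol genes lie mostly above 0 and endothelial genes below, and no inflammation gene is red.

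Whether the difference at 96 hpf was another one than at 48 hpf was tested gene by gene, as the log2 fold change at 96 hpf minus that at 48 hpf. This held for 1541 genes (6.36%), 517 with a positive (2.13%) and 1024 with a negative difference (4.22%). Among the sterol genes 5 of 31 were called, all with a negative difference (TM7SF2, MVD, MVK, LSS and LBR). LSS, at 2.40 at 48 hpf, had a log2 fold change of 0.93 at 96 hpf (adjusted p of the difference = 0.027). Among endothelial genes 9 of 64 were called: pecam1, at -0.97 at 48 hpf, had a log2 fold change of -0.25 at 96 hpf (adjusted p of the difference = 0.015), and ptprb, at -0.83 at 48 hpf, one of -1.63 (adjusted p = 0.0099). Photoreceptor genes had 21 calls of 37. The count was 804 without T70 and 906 without T69.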

How the data were processed

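Whole-embryo RNA was sequenced from strand-marking libraries. The raw counts per gene are used as deposited: the authors aligned reads to GRCz11 with HISAT2 2.1.0, kept those above a mapping quality minimum and counted them with featureCounts 2.0.3, with SAMtools and MultiQC 1.11 named in the submitters' processing notes. The annotation release and the strand setting are not given in the sources used here, so overlapping and antisense genes cannot be told apart. The table held 32520 identifiers, 29220 of which were given a name, 477 of these from the names in the study's supplementary tables, and 25 list members could not be matched.

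The contrast was taken from edgeR 4.0.16 (limma 3.58.1, R 4.3.3): a quasi-likelihood test on 55 libraries in 18 groups, which share 1 estimate of the spread, with filterByExpr, TMM normalization and Benjamini-Hochberg adjustment over 24246 genes. DMSO libraries T14 and T51 were left out of the fit. SE was the log2 fold change divided by the root of F. Depth was 20609990 to 86897183 counts over the fitted libraries. No pair of the 6 libraries agreed within sampling noise (chi-square per degree of freedom at least 4.55), so each counted once. Columns mapped to no sample: 0. The script was tested on simulated data.

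Genes were named by this rule: the 15 non-overlapping DEGs of lowest p per direction, up to 8 DEGs of each list, the VEGF receptors, complex I by range, and the 3 largest changes per direction with a mean of at least 1 CPM. Further list members and examples were chosen after their values were seen. The comparison, members and lists were chosen with earlier results of these data known. Alternatives were RLE normalization, other filters on low counts (none, or a mean count of at least 10), other sets of libraries, DESeq2 1.42.0 and leaving out each replicate. Leaving out T61 with T63, and leaving out structural and unnamed identifiers, were chosen after seeing the data. Tables and plots were made with Python 3.11.15, pandas 2.3.3 and matplotlib 3.10.9. Single-gene results of some list members are not reported here.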

Additional observations from a re-analysis of the deposited data

Results flagged for a closer look

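The difference between sorafenib and rotenone at 96 hpf was not the same as at 48 hpf in 1541 genes, by edgeR's test of the difference between the 2 log2 fold changes. The values that follow are the log2 fold change at 96 hpf minus that at 48 hpf. Among sterol and fatty acid genes, it was -1.10 for TM7SF2, -1.04 for MVD, -1.47 for LSS and -1.71 for FADS3, whose levels were higher in sorafenib embryos at both ages. PLTP, lower at 48 hpf, had 0.48.

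Among endothelial genes, it was 0.72 for pecam1, 0.63 for plvapb and 1.01 for BCL6B, which were lower in sorafenib embryos at 48 hpf and not called at 96 hpf, and -0.80 for ptprb, which was lower at both ages. FKBP5 had a difference of 1.49, MYL2 (ENSDARG00000104722) one of 1.76 and slc3a2a one of 0.52, and all 3 were lower at 48 hpf and not called at 96 hpf.

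Among the genes named here, si:ch73-226l13.2, with a difference of -11.69, had the largest value and was at 0 in all rotenone libraries at 48 hpf, so that this fitted value is no bound. 5_8S_rRNA (ENSDARG00000081218), with 5.47, had its high counts in rotenone T63 and T61 at 48 hpf.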

How the results depend on the processing

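No paired analysis was possible because the groups compared share no replicate numbers. The 478 DEGs at 48 hpf became 313 in a fit of late libraries alone, 2230 without T16, T37 and T49, 102 without rotenone T61 and T63 together, and 165 to 375 with 1 replicate left out. They were 401 (184 higher, 217 lower) with DMSO T51 kept, 649 in DESeq2 (413 higher, 236 lower) and 388 in a fit of these 2 groups alone, with 195 shared. Sterol genes (21 higher) numbered 13 in the fit of these 2 groups, 12 without T61 and T63, and 16 to 21 with 1 replicate left out. Endothelial genes (21 lower) numbered 8 without T61 and T63 and 10 to 20 with 1 replicate left out. At 1.3 µM against 25 nM the 169 DEGs became 8 in the fit of the groups compared, 418 in DESeq2 and 30 to 180 with 1 replicate left out. At 36 hpf the 2317 became 526 without T16, T37 and T49, 302 to 3894 with 1 replicate left out, and 0 in the fit of the groups compared, where edgeR gave 329 at an unadjusted p under 0.05 and DESeq2 3232 DEGs in the full fit. At 96 hpf the 4666 became 8027 without T16, T37 and T49 and 2664 to 5133 with 1 replicate left out, and the 1541 genes of the difference between ages 3923 and 804 to 2222. Without T61 and T63 the log2 fold change was 0.91 for hist1h4l (ENSDARG00000111247) and 3.80 for U1 (ENSDARG00000109433 and ENSDARG00000114494), against negative values with them. The causes were not tested, and 3 pools a group limit each value. Of 71 named genes, 33 were called in every alternative.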

Other observations

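Genes outside the lists, chosen after their values were seen, add to the groups described. The complement genes c3a.2 and cfb, of the alternative pathway, were 3.33-fold and 1.77-fold higher, with c3a.2 at 1.89, 2.29 and 2.08 CPM in sorafenib embryos, against 0.471, 0.711 and 0.714 CPM in rotenone embryos (adjusted p = 4.28e-05 and 0.00217). The chemokine ccl34a.4 was 5.39-fold higher (adjusted p = 0.00109) and irf9, which carries interferon signals to the nucleus, 2.16-fold higher (adjusted p = 6.63e-05). PTGS2 (ENSDARG00000004539), a cyclooxygenase, had 42.6, 44.5 and 41.7 CPM in sorafenib embryos, against 20.9, 23.6 and 23.5 CPM in rotenone embryos (adjusted p = 0.000508). The lipase LIPG had 51.2, 55.3 and 34.5 CPM in sorafenib embryos, against 26.1, 23.1 and 25.0 CPM in rotenone embryos, and TMEM97, a sterol-regulated membrane protein, was 2.60-fold higher, in both cases with T45 lowest among sorafenib libraries. On the lower side, adgrl4, MCAM, notchl, exoc3l2a and ushbp1 were 1.41-fold to 1.94-fold lower, with no overlap between the groups.

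CITED2, a transcriptional co-regulator that restrains HIF, had 106, 104 and 103 CPM in sorafenib embryos, against 59.7, 61.9 and 46.9 CPM in rotenone embryos and 96.9 and 96.7 CPM in DMSO embryos (adjusted p = 3.48e-05), so that rotenone was the group apart. The same order was seen in KLF6 (1.35-fold higher) and in the Notch target HEY1 (1.42-fold), while HES1 (1.60-fold) had DMSO values between the groups. The chaperone gene hsp90aa1.1 had 141, 176 and 194 CPM in sorafenib embryos, against 282, 200 and 297 CPM in rotenone embryos and 176 and 168 CPM in DMSO embryos (adjusted p = 0.0109), with T63 the lowest rotenone library. Of 17 tRNA synthetase genes, which charge tRNAs with amino acids, NARS1, YARS1 and AARS1 were lower and none was higher. Over all genes 0.899% were lower, and the median log2 fold change of the 17 was -0.30. T63 was the lowest rotenone library in all 17. The part of its structural RNA content in this was not tested.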
